A study of Homo sapiens with 10 samples.

Results

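Genes of cholesterol and fatty acid synthesis that are linked to the SREBP transcription factors were described in HCT116, a long-established cell line from a human colorectal carcinoma, in 5 derivatives that are called lines here. They were taken from a list of 34 genes and kept where the probe-gene table of the arrays named them, with the brightest probe set standing for a gene. The table named 30 of the 34, among 14884 named genes in all, and all 30 were among the 10797 genes bright enough to be tested. FDFT1, LSS, CYP51A1 and SC5D were not named, so their expression is not analysed here. The 30 members were 14 enzymes of sterol synthesis, 6 genes of SREBP control and sterol transport, and 10 genes of fatty acid synthesis.

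The lines, per their labels, were wild type (WT), the ORC1 mutants ORC1B14 and ORC1BP32, and the ORC2 mutants ORC2B2 and ORC2BP8, each untreated, grown at 37 °C and 5% CO2, and each with 2 arrays titled as biological replicates. The proteins ORC1 and ORC2 belong to the complex that marks where DNA replication starts. The labels give neither the kind of mutation nor whether a line is 1 clone, and do not say that replicates were separate cultures, so a p-value here measures the spread between these arrays, which may be technical. All 4 mutant lines were compared with the same 2 WT arrays, so a property of the mutant lines and one of those WT arrays cannot be told apart in these data. Values come from bulk RNA, where fewer cells with a message and less of it per cell cannot be told apart.

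Cells make cholesterol from acetyl-CoA, first through the mevalonate pathway to farnesyl diphosphate and squalene, and then through a series of changes to the sterol ring. When membrane sterol is low, SCAP carries the SREBP proteins from the endoplasmic reticulum to the Golgi, where proteases release their active part, and this part switches on genes of sterol and fatty acid synthesis. When sterol is ample, the INSIG proteins hold SCAP back. SREBP-2, from SREBF2, is known mainly for the sterol genes, and SREBP-1, from SREBF1, mainly for the fatty acid genes, and SREBPs work at promoters together with NF-Y, which binds CCAAT boxes.

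The main pattern among the members was in the sterol genes. The list was picked with earlier results of these data known, so the shares of all genes given beside its counts describe it and do not test it. Values are log2 expression values, so a difference of 1 is 2-fold. In the mean of the 4 mutant lines against WT, the sterol synthesis members had a median change of 0.59, and 12 of 14 lay above 0. The fatty acid synthesis members had a median of 0.11, with 6 of 10 above 0. All genes tested had a median of 0.04, with 5980 of 10797 above 0. Members are said to rise or fall where limma, fitted over all genes, gave a Benjamini-Hochberg adjusted p under 0.05. In this mean 4 members rose, namely ACAT2, NSDHL, DHCR7 and INSIG1, and 0 fell, while 45 of all genes tested rose (0.417%) and 65 fell (0.602%), 110 in all (1.02%). That split of 45 higher among 110 calls was 17 among 63 after centring each array and 103 among 204 after quantile normalization. At an unadjusted limma p under 0.05, 13 members were higher and 3 lower, against 8.76% and 8.51% of all genes.

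Promoter sequence is shown for those rising members that the RefSeq promoter table (GRCh38.p14) holds, and for SREBF2, the 1 member with a match to the sterol response letters searched. Each run is the 250 bases before the annotated start, 5′ to 3′ on the gene's own strand. Capitals mark CCAAT or its reverse complement ATTGG, the E-box CACGTG in INSIG1, and a match to TCACNCCAC in SREBF2. For DHCR7, which has 2 annotated starts, the window with more CCAAT matches is shown. ACAT2 has no entry in the table.
NSDHL, chrX:152830813-152831062, + strand: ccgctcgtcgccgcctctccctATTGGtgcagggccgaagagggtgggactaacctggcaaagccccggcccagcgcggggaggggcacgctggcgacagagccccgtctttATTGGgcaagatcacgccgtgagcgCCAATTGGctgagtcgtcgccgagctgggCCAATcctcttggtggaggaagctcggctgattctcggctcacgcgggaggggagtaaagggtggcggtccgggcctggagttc
DHCR7, chr11:71448394-71448643, - strand: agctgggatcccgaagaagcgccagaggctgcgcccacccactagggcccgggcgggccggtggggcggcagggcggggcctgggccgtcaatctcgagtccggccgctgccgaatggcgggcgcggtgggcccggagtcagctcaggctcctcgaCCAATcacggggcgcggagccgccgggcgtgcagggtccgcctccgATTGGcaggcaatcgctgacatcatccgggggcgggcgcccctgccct
INSIG1, chr7:155297628-155297877, + strand: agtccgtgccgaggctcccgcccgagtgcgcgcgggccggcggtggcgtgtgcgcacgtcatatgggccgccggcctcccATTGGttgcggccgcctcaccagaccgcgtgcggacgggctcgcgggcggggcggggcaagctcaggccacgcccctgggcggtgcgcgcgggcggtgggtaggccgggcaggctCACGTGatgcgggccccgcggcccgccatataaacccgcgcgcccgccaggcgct
SREBF2, chr22:41832855-41833104, + strand: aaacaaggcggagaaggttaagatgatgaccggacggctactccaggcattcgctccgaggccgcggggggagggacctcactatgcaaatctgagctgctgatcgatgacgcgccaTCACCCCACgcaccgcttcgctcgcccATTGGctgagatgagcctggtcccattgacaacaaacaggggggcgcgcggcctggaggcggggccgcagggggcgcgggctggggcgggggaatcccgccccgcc

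The windows held 5 CCAAT matches in NSDHL, 2 in DHCR7, 1 in INSIG1 and 1 in SREBF2, counting both strands, and 1 forward and 1 reverse match in NSDHL overlap each other. Over the 30 of 34 listed genes with an entry there were 43 windows, since some genes have several. These include windows of LSS, CYP51A1 and SC5D, whose expression was not measured, and 27 of the 30 genes were measured. CCAAT was found in 15 of 20 windows of sterol synthesis genes (75.0%), in 7 of 16 of fatty acid genes (43.8%), in 32.7% of the 11626 windows of genes tested on the arrays, and in 32.0% of all 35116 windows. GGGCGG, letters known as a binding site of SP1, was in 90.0%, 75.0%, 62.1% and 42.6% of windows in the same order. TCACNCCAC, a form of the sterol response element, was in 0 sterol, 0 fatty acid and 1 control window, against 0.809% of windows of tested genes and 0.883% of all windows. CACGTG was in 2 of 20 sterol windows, both of SC5D, 6.25% of fatty acid windows and 2 of 7 control windows (28.6%). It was in 8.07% of tested-gene windows and 6.34% of all windows. The CCAAT share of the sterol genes takes in genes that were higher in the mutant lines and genes that were not. Windows of MVK, MVD and EBP held CCAAT, as did those of MSMO1, FDPS, HSD17B7 and TM7SF2, while that of PMVK did not. These counts describe letters in a short window, and the arrays did not measure binding.

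**Figure D1:**
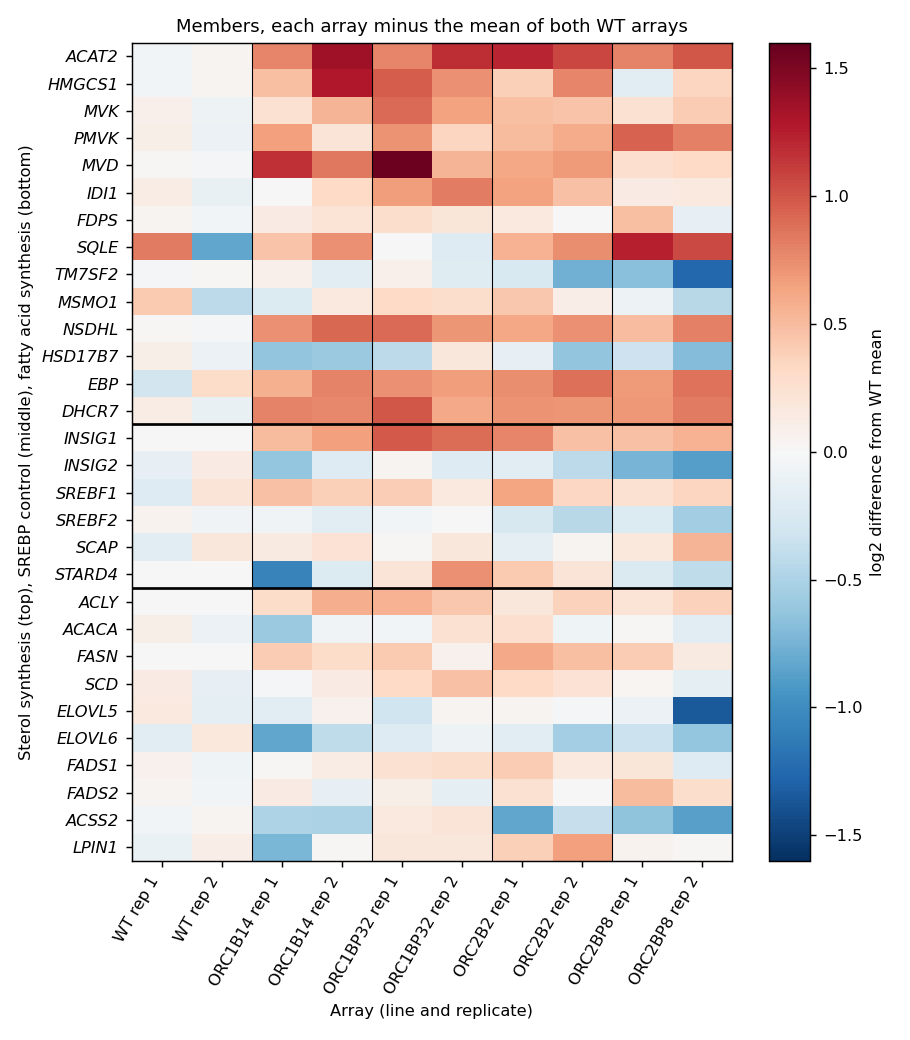
Heat map of the 30 members (rows) in the 10 arrays (columns). Colour is the log2 value minus the mean of both WT arrays, red higher and blue lower. Among the rows red in all 8 mutant arrays are ACAT2, MVK, PMVK, MVD, NSDHL, EBP, DHCR7 and INSIG1. Of the fatty acid rows, ACLY and FASN are red in all 8 in paler shades. ELOVL6 is blue in all 8, and the other fatty acid rows are mixed.

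The early steps of the sterol pathway were led by ACAT2, the cytosolic thiolase that joins acetyl-CoA units. ACAT2 (probe set 17014309) stood at 6.68 and 6.78 in WT, 7.52 and 8.08 in ORC1B14, 7.51 and 7.91 in ORC1BP32, 7.95 and 7.80 in ORC2B2, with 7.53 and 7.72 in ORC2BP8. All 8 mutant arrays lay above both WT arrays, and the lines did not separate from one another. ACAT2 rose by 1.02 (SE 0.18, 95% interval 0.62 to 1.42, limma adjusted p = 0.0345) in the mean of the mutant lines, a 2.03-fold difference. In single lines the differences were 1.07, 0.98, 1.15 and 0.90 (SE 0.23), none past the threshold (limma adjusted p = 0.0701, 0.214, 0.0722 and 0.106), with the lines in the order of the array values. Within replicate 1 the mean difference was 0.94, and within replicate 2 it was 1.10.

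HMGCS1, the synthase that makes HMG-CoA, stood at 6.81 and 6.91 in WT, 7.34 and 8.15 in ORC1B14, 7.83 and 7.59 in ORC1BP32, 7.24 and 7.64 in ORC2B2, with 6.70 and 7.21 in ORC2BP8. In 3 lines it lay above WT, and in ORC2BP8 1 array lay below both WT arrays and 1 above them. Its mean difference was 0.60 (SE 0.22, limma adjusted p = 0.205). Between ORC1 and ORC2 lines it differed by 0.53 (95% interval 0.09 to 0.97, limma adjusted p = 0.613), which did not pass.

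The kinases and the decarboxylase that turn mevalonate into isopentenyl diphosphate were higher in all 8 mutant arrays than in both WT arrays. None passed the test in the main fit, which takes no account of replicate number. With replicate number as a block, PMVK and MVD passed and MVK did not. MVK, mevalonate kinase, stood at 5.67 and 5.52 in WT, 5.84 and 6.14 in ORC1B14, 6.51 and 6.24 in ORC1BP32, 6.08 and 6.06 in ORC2B2, with 5.84 and 6.004 in ORC2BP8 (mean difference 0.49, SE 0.16, limma adjusted p = 0.143). PMVK, phosphomevalonate kinase, stood at 5.21 and 5.01 in WT, 5.76 and 5.32 in ORC1B14, 5.83 and 5.46 in ORC1BP32, 5.62 and 5.71 in ORC2B2, with 6.06 and 5.92 in ORC2BP8 (0.60, SE 0.17, limma adjusted p = 0.107). The 2 kinases were thus ordered differently over the lines, with MVK highest in ORC1BP32 and PMVK highest in ORC2BP8.

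MVD, mevalonate diphosphate decarboxylase, stood at 6.46 and 6.44 in WT, 7.62 and 7.29 in ORC1B14, 8.02 and 7.001 in ORC1BP32, 7.06 and 7.14 in ORC2B2, with 6.72 and 6.77 in ORC2BP8. Its mean difference was 0.75 (SE 0.23, 95% interval 0.25 to 1.25, limma adjusted p = 0.121), made up of 1.001, 1.06, 0.65 and 0.30 in the lines. The smallest value was in ORC2BP8, where MVD lies on chromosome 16 among 20 tested neighbours (10 on each side, FOXF1 to ACSF3) of which 12 lay below WT, with a median of -0.07. In ORC1B14, ORC1BP32 and ORC2B2 the medians of the same neighbours were 0.31, 0.18 and 0.17. The part of the neighbourhood in the smaller MVD difference was not tested.

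The later isoprenoid enzymes differed less. IDI1, isopentenyl diphosphate isomerase, differed by 0.16, 0.74, 0.56 and 0.14 in the lines (SE 0.20), and by 0.40 in their mean (limma adjusted p = 0.220). FDPS, farnesyl diphosphate synthase, differed by 0.16 (95% interval -0.22 to 0.55). Its dimmer probe set gave 0.47 and the brighter one 0.16, so the probe sets disagree in size. FDPS and HSD17B7 have closely similar copies elsewhere in the genome, so their probe signal is less certain.

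Among the enzymes that act on squalene and the sterol ring, NSDHL and DHCR7 rose and EBP was close to them. NSDHL, a sterol dehydrogenase that takes part in removing methyl groups from the ring, stood at 7.64 and 7.61 in WT, 8.35 and 8.54 in ORC1B14, 8.52 and 8.33 in ORC1BP32, 8.24 and 8.35 in ORC2B2, with 8.12 and 8.42 in ORC2BP8. DHCR7, the reductase of the last step to cholesterol, stood at 8.46 and 8.22 in WT, 9.13 and 9.11 in ORC1B14, 9.33 and 8.95 in ORC1BP32, 9.06 and 9.05 in ORC2B2, with 9.04 and 9.17 in ORC2BP8. For these genes no mutant array overlapped WT, and the 4 lines were close together. NSDHL rose by 0.74 (SE 0.15, limma adjusted p = 0.0446) and DHCR7 by 0.77 (SE 0.15, limma adjusted p = 0.0391), or 1.67-fold and 1.70-fold. The differences in single lines were 0.82, 0.81, 0.67 and 0.65 for NSDHL, and 0.78, 0.80, 0.72 and 0.76 for DHCR7, all with SE 0.18 and limma adjusted p from 0.0795 to 0.209. Within replicates 1 and 2, NSDHL differed by 0.67 and 0.80, and DHCR7 by 0.68 and 0.85.

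EBP, the sterol isomerase, stood at 6.85 and 7.42 in WT, 7.71 and 7.93 in ORC1B14, 7.87 and 7.80 in ORC1BP32, 7.88 and 8.02 in ORC2B2, with 7.82 and 8.01 in ORC2BP8. Its mutant arrays also lay above both WT arrays, but the WT arrays were 0.58 apart. The mean difference was 0.74 (SE 0.17, 95% interval 0.36 to 1.12, limma adjusted p = 0.0637), as large as that of NSDHL and short of the threshold. EBP passed it after quantile normalization and with replicate number as a block.

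SQLE, squalene epoxidase, could not be placed against WT, because its WT arrays were the farthest apart of all members. SQLE stood at 7.80 and 6.14 in WT, 7.42 and 7.71 in ORC1B14, 6.96 and 6.77 in ORC1BP32, 7.53 and 7.72 in ORC2B2, with 8.21 and 8.02 in ORC2BP8. Only the ORC2BP8 arrays lay above both WT arrays. The mean difference was 0.57 (SE 0.32, limma adjusted p = 0.394), with -0.27 within replicate 1 and 1.41 within replicate 2. Without WT replicate 1 it was 1.40, and without WT replicate 2 it was -0.26. Among the mutant lines, where WT plays no part, ORC1 lines were lower than ORC2 lines by 0.65 (95% interval of the difference -1.29 to -0.02, limma adjusted p = 0.689), short of the threshold.

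The other ring enzymes were not higher. MSMO1, a methylsterol oxidase, differed by 0.07 (95% interval -0.39 to 0.53), with WT arrays at 10.16 and 9.31 that span nearly the whole range of the mutants. HSD17B7, a sterol ketone reductase, stood at 5.49 and 5.29 in WT, 4.76 and 4.79 in ORC1B14, 4.98 and 5.57 in ORC1BP32, 5.26 and 4.75 in ORC2B2, with 5.06 and 4.70 in ORC2BP8 (mean difference -0.41, SE 0.20, limma adjusted p = 0.332). TM7SF2, a sterol reductase, stood at 5.88 and 5.91 in WT, 5.98 and 5.73 in ORC1B14, 5.97 and 5.70 in ORC1BP32, 5.65 and 5.13 in ORC2B2, with 5.23 and 4.63 in ORC2BP8. The 4 ORC2 arrays of TM7SF2 lay below both WT arrays and below all ORC1 arrays. The ORC1 minus ORC2 difference was 0.69 (SE 0.18, 95% interval 0.29 to 1.08), and its limma adjusted p of 0.310 did not pass.

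**Figure D2:**
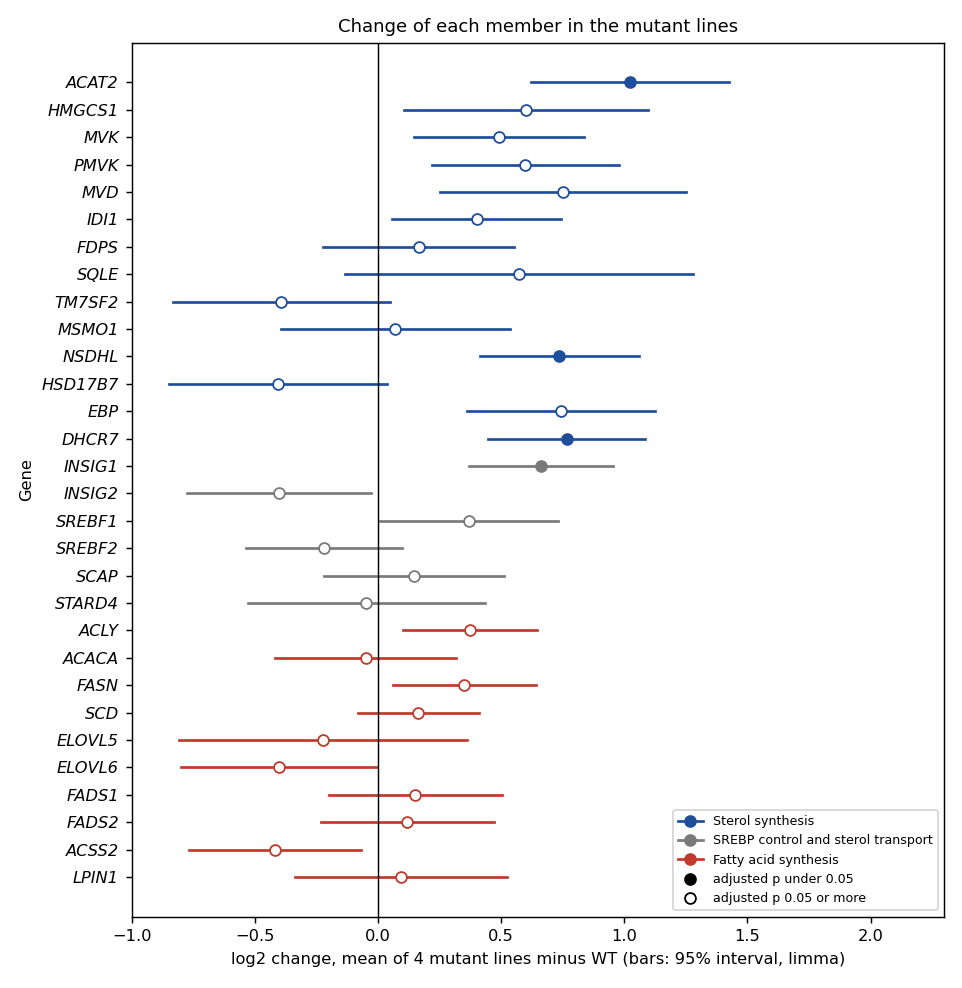
Change of each member in the mean of the 4 mutant lines minus WT (x axis, log2), with 95% intervals from limma; filled points passed an adjusted p of 0.05. ACAT2, NSDHL, DHCR7 and INSIG1 are filled, and the fatty acid members lie between -0.42 and 0.37.

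Among the control genes, INSIG1 rose. INSIG1, which holds SCAP back and is itself a known SREBP target, stood at 8.76 and 8.73 in WT, 9.25 and 9.40 in ORC1B14, 9.72 and 9.63 in ORC1BP32, 9.52 and 9.21 in ORC2B2, with 9.22 and 9.30 in ORC2BP8. All mutant arrays were above WT and ORC1BP32 was the highest line. It rose by 0.66 (SE 0.13, limma adjusted p = 0.0457), or 1.58-fold, with 0.67 within replicate 1 and 0.65 within replicate 2. In single lines the differences were 0.58, 0.93, 0.62 and 0.51 (SE 0.17, limma adjusted p = 0.132, 0.114, 0.156 and 0.187).

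INSIG2, its paralog with the same anchoring role, lay on the other side of WT, at 7.25 and 7.51 in WT, 6.76 and 7.17 in ORC1B14, 7.42 and 7.17 in ORC1BP32, 7.20 and 6.95 in ORC2B2, with 6.63 and 6.49 in ORC2BP8. Of its mutant arrays 7 lay below both WT arrays. The mean difference of -0.40 (SE 0.17, 95% interval -0.78 to -0.03, limma adjusted p = 0.258) did not pass the test. SREBF1 differed by 0.37 (95% interval 0.01 to 0.73), SREBF2 by -0.22 (95% interval -0.54 to 0.10) and SCAP by 0.15 (95% interval -0.22 to 0.51), with limma adjusted p = 0.279, 0.474 and 0.708. The messages of the SREBP proteins themselves did not pass the test, and the processing of the proteins was not measured.

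STARD4, a carrier that moves sterol between membranes, split the lines of each mutated gene. It stood at 8.15 and 8.15 in WT, 7.08 and 7.93 in ORC1B14, 8.35 and 8.89 in ORC1BP32, 8.57 and 8.35 in ORC2B2, with 7.91 and 7.74 in ORC2BP8. Both arrays of ORC1BP32 and ORC2B2 lay above WT, and both of ORC1B14 and ORC2BP8 lay below. ORC1B14 was lower than ORC1BP32, with a difference of -1.12 (SE 0.28, 95% interval -1.73 to -0.51, limma adjusted p = 0.361), and ORC2B2 minus ORC2BP8 was 0.63 (limma adjusted p = 0.870). Neither difference passed the test over all genes.

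**Figure D3:**
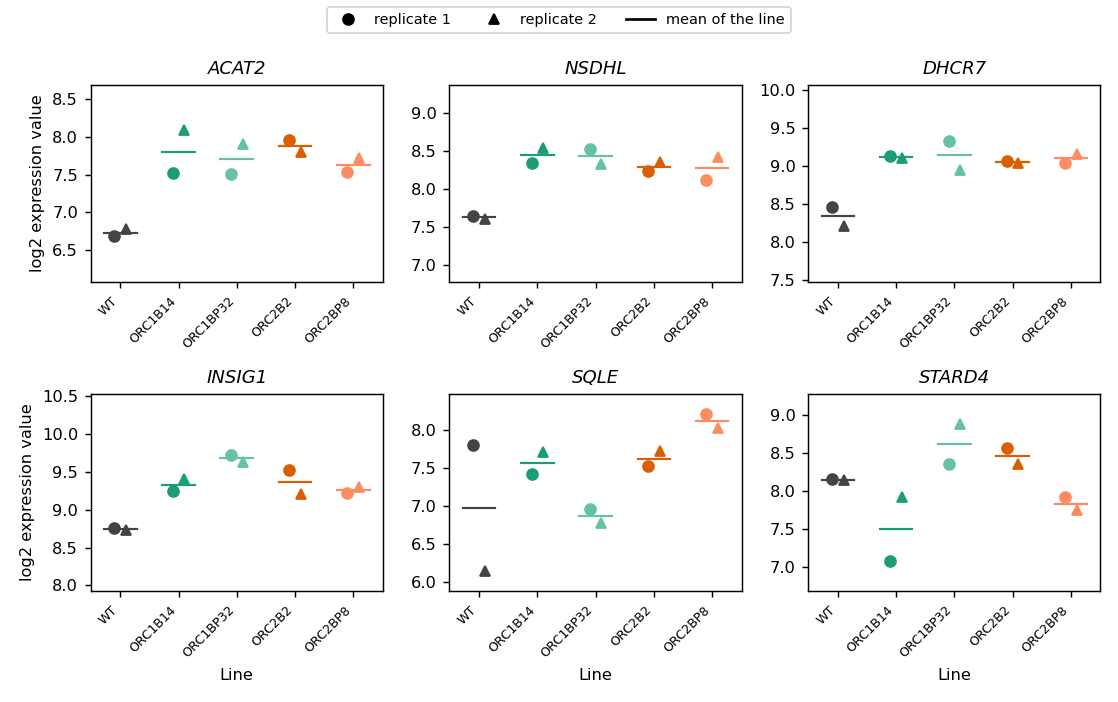
log2 values of 6 members in each array (points, circles for replicate 1 and triangles for replicate 2) with the mean of each line (bars); the y axes span the same width. ACAT2, NSDHL, DHCR7 and INSIG1 are above WT in every mutant array, the WT points of SQLE are 1.66 apart, and STARD4 lies on both sides of WT.

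In fatty acid synthesis 0 of 10 members rose or fell in the mean of the mutant lines by limma, where 1.02% of all genes did. With so small a share called, 0 of 10 does not set these members apart from all genes. At an unadjusted p under 0.05, 2 members were higher and 2 lower, against 8.76% and 8.51% of all genes. The higher pair were the enzymes that open the pathway and build the chain. ACLY, ATP citrate lyase, which supplies acetyl-CoA to both fatty acid and sterol synthesis, stood at 10.18 and 10.19 in WT and between 10.37 and 10.77 in the mutant arrays. FASN, fatty acid synthase, stood at 10.16 and 10.17 in WT and between 10.23 and 10.77 in the mutants. These were the only fatty acid members with all 8 mutant arrays above WT. Their differences were 0.37 (SE 0.12, limma adjusted p = 0.153) and 0.35 (SE 0.13, limma adjusted p = 0.203). Of the 20 tested genes nearest to FASN on chromosome 17, only 4 lay below WT in this mean, with a median of 0.18. By line their medians were 0.27 (ORC1B14), -0.06 (ORC1BP32), 0.24 (ORC2B2) and 0.36 (ORC2BP8). FASN itself differed there by 0.35, 0.24, 0.54 and 0.27. For ACLY 8 of 20 neighbours lay below WT in the mean, with a median of 0.04. The part of the neighbourhood in the FASN difference was not tested.

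ACACA, acetyl-CoA carboxylase, which makes the malonyl-CoA that the chain grows from, differed by -0.05 (95% interval -0.42 to 0.32). SCD, the desaturase that makes oleate, stood at 12.11 and 11.84 in WT and at 11.82 to 12.44 in the mutants, which overlap, with a difference of 0.16 (95% interval -0.08 to 0.41). The desaturases of polyunsaturated fatty acids FADS1 and FADS2 differed by 0.15 and 0.12, and LPIN1, a phosphatidate phosphatase that is also an SREBP target, by 0.09 (SE 0.16, 0.16 and 0.20).

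The fatty acid members lower at an unadjusted p under 0.05 were ACSS2 and ELOVL6. ACSS2, which makes acetyl-CoA from acetate, stood at 7.59 and 7.68 in WT, 7.15 and 7.13 in ORC1B14, 7.80 and 7.85 in ORC1BP32, 6.81 and 7.27 in ORC2B2, with 6.99 and 6.78 in ORC2BP8. It lay below WT in both arrays of 3 lines and above WT in both arrays of ORC1BP32. The mean difference was -0.42 (SE 0.16, limma adjusted p = 0.212), and ORC1B14 minus ORC1BP32 was -0.68 (95% interval -1.13 to -0.24, limma adjusted p = 0.604).

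ELOVL6, which elongates saturated fatty acids, differed by -0.40 (SE 0.18, limma adjusted p = 0.287), and 7 mutant arrays lay below both WT arrays. In this mean 15 of the 20 tested genes nearest to ELOVL6 on chromosome 4 also lay below WT, with a median of -0.15. Their part in the ELOVL6 difference was not tested. ELOVL5, the elongase of polyunsaturated fatty acids, differed by -0.22 (SE 0.27), less than its error, with -0.29 within replicate 1 and -0.16 within replicate 2. It stood at 7.86 and 6.61 in ORC2BP8 and between 7.64 and 8.11 elsewhere. In ORC2BP8, 16 of the 20 tested genes nearest to ELOVL5 on chromosome 6 also lay below WT, with a median of -0.36, and the part of this in the ELOVL5 value was not tested.

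Across arrays the sterol and fatty acid lists were set side by side. The median of the 14 sterol members, taken relative to the WT mean of each gene, was 0.46 and 0.64 in ORC1B14, 0.72 and 0.58 in ORC1BP32, 0.53 and 0.64 in ORC2B2, with 0.38 and 0.38 in ORC2BP8. The median of the 10 fatty acid members was -0.10 and 0.04, 0.17 and 0.20, 0.25 and 0.07, and 0.04 and -0.16 in the same order. In each of the 8 mutant arrays the sterol median was the higher one. In the WT arrays the sterol medians were 0.06 and -0.06, and the medians of all genes tested lay between -0.03 and 0.06 over the 10 arrays. These medians share arrays and describe the lists without a test.

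**Figure D4:**
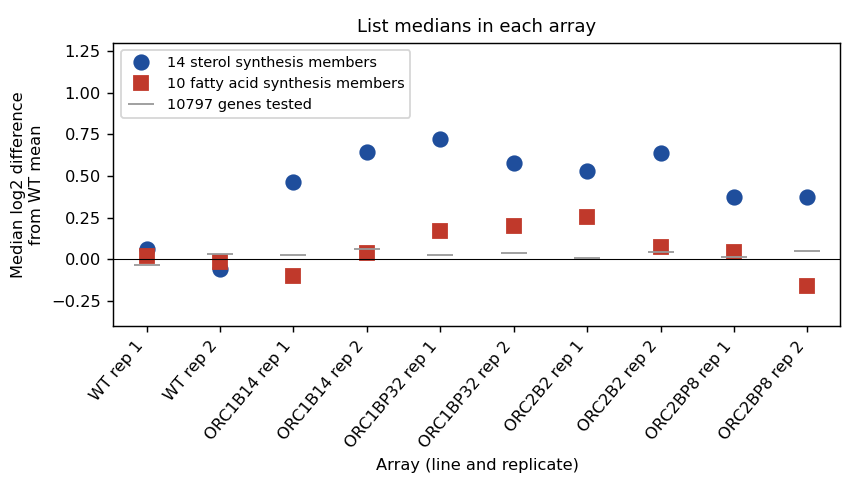
Median log2 difference from the WT mean in each array (x axis) for the 14 sterol members (circles), the 10 fatty acid members (squares) and all 10797 genes tested (dashes). The sterol medians of mutant arrays lie from 0.38 to 0.72 and the fatty acid medians from -0.16 to 0.25.

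Over all 30 members, 10 had all 8 mutant arrays above both WT arrays (ACAT2, MVK, PMVK, MVD, NSDHL, EBP, DHCR7, INSIG1, ACLY and FASN), which 7.96% of genes tested had. Of these, 7 were sterol, 1 control and 2 fatty acid members. Since the list was picked with earlier results of these data known, the shares beside these counts are not a test. No member had all mutant arrays below WT (0 of 30), which 6.93% of genes had. By line means, 14 members lay above WT in each of the 4 lines (10 sterol, 2 control and 2 fatty acid members), against 31.7% of genes, and 5 lay below in each, against 23.9%.

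In single lines no member passed the test by limma in the fit without a replicate block (0 of 30 in each of the 4 lines), where ORC1B14 had 63 called genes (0.583%), ORC1BP32 had 2 (0.0185%), ORC2B2 had 36 (0.333%) and ORC2BP8 had 101 (0.935%). At an unadjusted p under 0.05, 8 members were higher and 4 lower in ORC1B14, where 8.15% and 8.81% of all genes were. ORC1BP32 had 12 higher and 0 lower members, against 5.28% and 4.82% of genes. ORC2B2 had 11 and 1, against 5.82% and 5.87%, and ORC2BP8 had 7 and 3, against 7.41% and 7.15%. Sterol members had medians of 0.51, 0.72, 0.57 and 0.31 in these lines, and fatty acid members -0.02, 0.18, 0.19 and -0.03. All 4 comparisons share the WT arrays.

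Between mutant lines, where WT takes no part, 0 of 30 members passed by limma in any of 3 comparisons. For ORC1 minus ORC2 lines 5 genes were called in all (0.0463%), and 5 members were higher and 1 lower at an unadjusted p under 0.05 (4.13% and 2.83% of genes), with sterol and fatty acid medians of 0.09 and 0.03. For ORC1B14 minus ORC1BP32 2 genes were called in all (0.0185%), with 0 members higher and 4 lower at that p (2.48% and 2.83% of genes), and medians of -0.04 and -0.27. For ORC2B2 minus ORC2BP8 24 genes were called in all (0.222%), with 3 members higher and 0 lower (3.01% and 2.45% of genes), and medians of 0.14 and 0.22. For DHCR7 the ORC1 minus ORC2 difference was 0.05 (95% interval -0.23 to 0.34) and for ACAT2 0.00 (95% interval -0.36 to 0.36).

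In the main fit the 4 calls in the mean of the mutant lines lay near the threshold (limma adjusted p from 0.0345 to 0.0457). The size of the differences was steadier than the calls. With replicate number as a block, limma adjusted p was 0.0065 to 0.0143 for the 4 genes, where 709 of all genes were called. After quantile normalization it was 0.0134 to 0.0332, where 204 of all genes were called. When 1 array was left out, ACAT2 stayed between 0.95 and 1.09 and NSDHL between 0.70 and 0.78. DHCR7 stayed between 0.64 and 0.89 and INSIG1 between 0.62 and 0.70. None of the 4 kept its call in every such fit. These fits leave 1 array in a line, and the number of all genes called changed between them as well. A call kept or lost there is therefore not read as a property of these genes. After centring each array on its median the count of members called was 0 (12 higher at an unadjusted p under 0.05), with limma adjusted p from 0.0538 to 0.0696 for the 4 genes. Of all genes, 63 were called after centring, against 110 before it.

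Further lipid genes were read from lists of related pathways, none of which had a member past the threshold in the mean of the mutant lines. Since 1.02% of all genes were called there, a count of 0 does not set lists this short apart. At an unadjusted p under 0.05, 8.76% of all genes were higher and 8.51% lower, to be set beside the counts of each list. Of 15 tested genes with other links to SREBP or lipid synthesis, 0 rose or fell by limma (2 higher and 2 lower at an unadjusted p under 0.05). The largest differences were those of ELOVL7, a fatty acid elongase (-0.69, SE 0.18, limma adjusted p = 0.0848), TMEM97, a sterol-regulated membrane protein (0.66, SE 0.16, limma adjusted p = 0.0643), and MLXIPL, the glucose-responsive factor ChREBP (-0.53, SE 0.19, limma adjusted p = 0.195). TMEM97 stood at 7.69 and 7.72 in WT and between 8.17 and 8.90 in the mutants. It rose by 0.99 in ORC2BP8 (SE 0.20, limma adjusted p = 0.0484). ELOVL7 fell by 1.43 in ORC1B14 (SE 0.23, limma adjusted p = 0.0347), where 19 of its 20 tested neighbours on chromosome 5 also lay below WT, with a median of -0.97. In ORC1BP32, ORC2B2 and ORC2BP8 ELOVL7 differed by -0.48, -0.54 and -0.31, none past the threshold. The medians of its neighbours there were 0.05, 0.05 and 0.10. The part of the neighbourhood in the ELOVL7 values was not tested.

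In the isoprenoid branch, which makes dolichol and other chains from mevalonate products, 0 of 3 tested genes passed by limma (1 higher at an unadjusted p under 0.05). They were DOLK, dolichol kinase (0.73, SE 0.24), DHDDS (0.32, SE 0.16) and NUS1 (0.15, SE 0.12), the last 2 being subunits of the enzyme that makes the dolichol chain. Of 12 listed genes of cholesterol export, storage and the sterol sensor LXR, 4 were tested (LPCAT3, SOAT1, MYLIP and OSBP), and the exporters ABCA1 and ABCG1 and the LXR genes NR1H2 and NR1H3 were not. Of these 4, 0 passed by limma (1 higher at an unadjusted p under 0.05). LPCAT3, a phospholipid-remodelling LXR target, stood at 9.17 and 9.19 in WT and between 9.49 and 10.04 in the mutants (0.58, SE 0.13, limma adjusted p = 0.0630). SOAT1, which stores cholesterol as esters, differed by 0.30 and MYLIP, an LXR target, by -0.18 (SE 0.14 and 0.24). Of 7 tested genes on a list named for fatty acid oxidation 0 passed by limma and 0 had an unadjusted p under 0.05. The largest differences were PLIN2 at 0.45, PPARA at -0.45 and ETFDH at -0.43 (SE 0.21, 0.24 and 0.25). This list is wider than the oxidation enzymes, and PLIN2 is a lipid droplet protein.

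The identity of the cells was checked on marker genes. Of 9 named colorectal epithelial markers 7 were at or above the array median, among them EPCAM with line means of 9.90 to 10.26, while CEACAM5 and CEACAM6 were below it in all arrays. The mean level of this list was 6.04 to 6.36 in WT and 6.20 to 6.58 in the mutants. Of the other cell types, 2 of 3 fibroblast markers, 2 of 3 blood cell markers and 4 of 6 hepatocyte markers were below the median in all arrays, including DCN, LUM, CD14, ALB and APOB. The rest, THY1, CD68, APOA1 and TTR, were at or above it in all 10 arrays. Line means were 4.40 to 4.50 for THY1, 4.16 to 4.72 for APOA1 and 4.47 to 4.57 for TTR. The colorectal marker VIL1 was no brighter, at 4.06 to 4.33. The fibroblast, blood cell and hepatocyte lists lay at 3.03 to 3.30, 4.53 to 4.70 and 3.69 to 3.77 in WT, and at 3.05 to 3.22, 4.54 to 5.24 and 3.62 to 3.82 in the mutants. The blood list moved with CD68, a lysosomal protein, whose line means were 8.004 to 9.13 (0.58, SE 0.23, limma adjusted p = 0.235). No marker was called in any comparison. The largest difference of a colorectal marker was that of KRT18 in ORC1B14 (1.17, SE 0.23, limma adjusted p = 0.0566). In the mean of the mutant lines 5 of the 7 tested colorectal markers lay above WT and 2 below. KRT19 and CDX2 had all 8 mutant arrays above both WT arrays, which 7.96% of genes tested had. Array medians were 3.94 to 3.96 for replicate 1 and 3.87 to 3.89 for replicate 2 in all lines.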

How the data were processed

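Untreated HCT116 lines were profiled on Affymetrix arrays, 10 in all, from Trizol-extracted RNA. For each of 53617 probe sets the deposited table holds a log2 value in every array. Affymetrix Expression Console is the tool given in the submitters' processing notes, and its version is not given there. How the authors normalized, and the build, is not given in the sources used here. The log base was read from the values (1.45 to 13.71), since no label states it. The values were used without further scaling. No arrays were identical (0 of 45 pairs).

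Probe sets were named through the platform's annotation (16098 with 1 symbol, 0 with several, 37519 unnamed here) and kept where at or above the array median on at least 2 arrays. The brightest stood for a gene, which left 10797 genes. ORC1 and ORC2 were not analysed here, so the labels were not checked against them. limma 3.58.1 in R 4.3.3 (lmFit on 5 line means, eBayes with an intensity trend, 5 residual and 5.83 prior degrees of freedom) gave two-sided p-values, Benjamini-Hochberg adjusted over all genes for each of 8 comparisons, with intervals from the moderated spread. The fit was run on simulated data with independent noise in each array. That run does not cover the deviations that same-numbered arrays shared here. The number of arrays limits the precision.

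Alternatives were the replicate number as a block, quantile normalization, centring, no filter, a stricter filter, the mean over probe sets, no trend and leaving out each array. Values in every array are given for members called in any comparison and for the 12 with the largest difference in the mean of the mutant lines. INSIG2, TM7SF2 and STARD4 were added after their values were seen. Of each further list the 3 genes with the largest differences are named. The members and lists were chosen with earlier results of these data known.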

Additional observations from a re-analysis of the deposited data

Results flagged for a closer look

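STARD4 lay on opposite sides of both WT arrays in lines of the same mutated gene, at -0.65 in ORC1B14 and 0.47 in ORC1BP32 against WT, and likewise at 0.31 in ORC2B2 with -0.32 in ORC2BP8. ACSS2 did so as well, for the ORC1 lines, at -0.50 in ORC1B14 and 0.18 in ORC1BP32, while both ORC2 lines lay below WT, ORC2B2 at -0.60 and ORC2BP8 at -0.75. Within the ORC1 lines the differences were tested and did not pass (limma adjusted p = 0.361 for STARD4 and 0.604 for ACSS2), nor did that of STARD4 within the ORC2 lines (limma adjusted p = 0.870). Differences between single ORC1 and single ORC2 lines were not tested.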

How the results depend on the processing

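The 14 sterol members kept a median between 0.46 and 0.61 in the mean of the mutant lines without any 1 array, and the fatty acid members one between 0.0552 and 0.13 (0.14 after quantile normalization). The count of members higher in that mean (4) was 7 with the replicate number as a block (the same 4 with EBP, PMVK and MVD), 5 after quantile normalization (the same 4 with EBP), 0 after centring, 2 without the filter on dim probe sets, 3 without the intensity trend, 4 with the stricter filter or the mean over probe sets, and 0 to 4 without 1 array. Same-numbered arrays deviated together in 9 of 10 pairs of lines (correlations of 0.0812 to 0.568, all but the lowest over 0.1), and array medians also differed by number. The numbers were not taken as a pairing because a correlation over 0.1 was required in every pair and the labels name no shared batch. With this block 4 members were higher in ORC1B14, 1 in ORC1BP32 and 3 in ORC2B2, while ORC2BP8 had 4 higher and 2 lower (TM7SF2 and ACSS2). Quantile normalization gave 2 in ORC1B14 and 1 in ORC2B2. Without 1 array, ORC2B2 had 0 to 1 higher, and ORC2BP8 0 to 1 higher and 0 to 1 lower. Over all genes the 110 calls in the mean of the mutant lines became 709 with the block (354 higher), 204 after quantile normalization and 63 after centring, and were 1 to 267 without 1 array. With the block the calls against WT were 496 in ORC1B14 (63 without it), 57 in ORC1BP32 (2), 251 in ORC2B2 (36) and 402 in ORC2BP8 (101). Between mutant lines they were 58 for ORC1 against ORC2 (5), 11 within ORC1 (2) and 94 within ORC2 (24). The cause was not tested.

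Some differences larger than 1 SE, none past the threshold, changed sign when 1 array was left out. A difference under 1 SE was given no direction, so its sign changes were not counted. SQLE ranged from -0.26 to 1.40 in the mean of the mutant lines, from -0.24 to 1.42 in ORC1B14 and from -0.18 to 1.48 in ORC2B2. MSMO1 ranged from -0.12 to 0.72 in ORC1BP32 and from -0.15 to 0.69 in ORC2B2. LPIN1 ranged from -0.74 to 0.0139 in ORC1B14, and the ORC1 minus ORC2 difference of ELOVL5 from -0.0488 to 0.58. In the settings other than leaving out an array, no member's difference changed sign where it exceeded 1 SE.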
